A study of Mus musculus with 3 samples.

Results

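Yipf6, Gm9, 4933428M09Rik and Foxp1 were the genes followed here, 4 of the 31053 genes counted in single testicular cells of WT, GRTH-KO and GRTH-KI mice. They were chosen by their measured levels: they stood at the top of an order of genes by how much higher their transcripts were in round spermatids (RSs) of both mutants than of WT, among genes whose mean level over the 3 libraries was at least 50 CPM, counts of the gene per 1000000 counts of all genes. The levels in RSs therefore describe the choice and test nothing. The question pursued was whether the difference lies in cells of the same stage, or could come from a different mix of stages in the mutant libraries.

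GRTH, also called DDX25, is a DEAD-box RNA helicase of the testis. All animals were on the C57BL/6 strain and were 8 weeks old per the labels. WT mice carry normal GRTH, KO mice lack it, and KI mice carry the human GRTH gene with an arginine-to-histidine change, which leaves the protein without its phosphorylated form. Dispersed cells of the seminiferous tubules were loaded at 7000 cells per library, and 3′ ends of transcripts were counted as unique molecular identifiers (UMIs, 1 for each captured molecule). The labels give 1 mouse per genotype, while the study's methods describe pooled mice over a wider range of ages. Either way a genotype is represented by a single library, so the spread between animals is unknown and no test between genotypes was possible. Where 3 values follow each other they are for WT, KO and KI. Every interval given is an exact 95% interval for counting error only.

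The libraries of WT, KO and KI held 82973909, 91388296 and 73150373 UMIs, and 5863, 4063 and 1572 cells were kept. Median depth per kept cell was 5129, 3973 and 11741.5 UMIs, and the median mitochondrial share was 0.0582%, 1.64% and 1.33%, both of which differ with the genotype, and their part in the results was not tested. Of the kept cells' barcodes, 16 were shared by WT and KO, 36 by WT and KI and 8 by KO and KI, more than the 3.51, 1.36 and 0.940 that the sizes of the lists give. With those cells left out, the median over the 4 genes of the log2 ratio to WT in RSs was 1.67 in KO and 1.79 in KI, against 1.66 and 1.78 with them.

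Spermatids are haploid cells that grow an acrosome as RSs and then, as elongated spermatids (ESs), replace histones by transition proteins and protamines. Before that, in pachytene spermatocytes (SPs), the X chromosome is silenced as a whole, and a set of X-linked genes is transcribed again in RSs. Because transcription stops as the nucleus condenses, late spermatids depend on transcripts that are stored and then removed. Yipf6 encodes a membrane protein of the Golgi, from which the acrosome is built, and belongs to the Yip1 domain family. Foxp1 encodes a forkhead transcription factor that mostly represses its targets. Gm9 and 4933428M09Rik are protein-coding genes with little known of their products.

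Of the 4 genes, 3 lie on the X chromosome. In the GRCm38 build, the one the counts were made on, Yipf6 (ENSMUSG00000047694) spans chrX:98936316-98949017 on the plus strand. Gm9 (ENSMUSG00000073243) spans chrX:37209348-37211041 on the minus strand, and 4933428M09Rik (ENSMUSG00000042525) spans chrX:139179228-139181009 on the plus strand. Foxp1 (ENSMUSG00000030067) is on an autosome, at chr6:98925338-99522721 on the minus strand. No 50-base stretch in the last 500 bases of the transcripts of the X-linked 3 recurs in another gene's transcripts. For Foxp1, 332 of 6529 such stretches recur, among others in Gm20696, a gene model that overlaps it on the same strand, so some Foxp1 reads could have been assigned elsewhere or left out and its level is less certain.

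The 100 bases before the start of the X-linked genes are shown because 3 of the 4 genes lie on 1 chromosome. They are the RefSeq reference sequence (GRCm38.p6), 5′ to 3′ on the gene's strand, and capitals mark TGACG or its reverse complement CGTCA, the shared core of cyclic AMP response elements. For Yipf6 the RefSeq start lies inside the GENCODE span given above, downstream of its 5′ end, so the window is upstream of the RefSeq start only.
Yipf6, chrX:98937681-98937780, plus strand: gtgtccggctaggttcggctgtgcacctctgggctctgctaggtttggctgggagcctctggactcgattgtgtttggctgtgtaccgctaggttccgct
Gm9, chrX:37211042-37211141, minus strand: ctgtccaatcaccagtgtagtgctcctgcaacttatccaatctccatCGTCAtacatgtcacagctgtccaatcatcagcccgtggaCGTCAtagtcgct
4933428M09Rik, chrX:139179128-139179227, plus strand: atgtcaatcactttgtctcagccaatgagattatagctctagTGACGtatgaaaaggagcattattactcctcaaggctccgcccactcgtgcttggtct

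The core TGACG, searched on both strands of the 250 bases before each start, was found in Gm9 at 53 and 13 bases before the start, and in 4933428M09Rik at 58 bases. It was not found in this window of Yipf6. Of 32851 promoters, 17.8% hold it, and of 1223 X-linked promoters 16.4% do. Whether a pair among these few promoters is more than such shares give was not tested. The full palindrome TGACGTCA, which holds the core, occurs in 1.55% of promoters and in no window of the 4 genes, and neither do the forkhead motif TGTTTAC (3.17% of promoters) or TATAAA (12.4%). CCAAT, held by 33.8% of promoters, occurs 5 times in Gm9, 2 times in 4933428M09Rik and 1 time in Yipf6. Foxp1 has 3 RefSeq starts and the 3′ counts do not tell which is used, so no promoter of it is printed, although TGACG and CCAAT both occur before 1 of them.

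Cells were clustered after integration of the libraries, with the 4 genes, Ddx25 and the genes named in the study's text left out, and clusters were named from marker genes of each cell type. The germ cells ran in pseudotime, an order of cells by similarity of their profiles, from cluster 12, which holds markers of spermatogonia and SPs and stayed unnamed, through the SP-like clusters 11, 10 and 7 to cluster 2, the RS-like cluster. Cluster 6 followed, which carried both ES markers and RS markers and was named ES-like, then the later ES-like clusters 4 and 5. The RS-like cluster held 553 WT, 400 KO and 186 KI cells, and cluster 6 held 533, 283 and 118. The late end was nearly empty in the mutants: cluster 5 held 1026 WT cells, 3 KO cells and 1 KI cell. Clusters 1, 3 and 9 were shallow, and 1 and 3 stayed unnamed. Ddx25, the targeted gene, was at 159 CPM in WT RS-like cells and 154 CPM in KI, but KI was lower than WT in SP-like cells (88.0 against 217 CPM) and higher in cluster 6 (96.1 against 55.8 CPM), and none of the 7126008 UMIs of KO RS-like cells came from it.

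The order by which the genes had been chosen was found again when the UMIs of clusters 2 and 6 were summed. In that sum Yipf6 ranked 1, Gm9 3, 4933428M09Rik 4 and Foxp1 5 by the smaller of the KO and KI log2 ratios. Pfn1, which encodes the actin-binding protein profilin, ranked 2 in this order but was not among the genes chosen. The list ended just above its level threshold: Foxp1 averaged 51.3 CPM, while the next genes below 50 CPM with as large a ratio were Gm27224 at 48.1 CPM and Npas1 at 45.7 CPM. Of 3471 genes of at least 50 CPM in this sum, 70 (2.02%) were at least 1 log2 unit higher in both mutants, and the 4 genes are among them by construction. In the RS-like cluster alone the 4 genes ranked 3, 4, 13 and 10 in the same sequence.

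Yipf6 was present in the earliest germ cells, nearly absent from SPs and present again in spermatids, with far more of it in the spermatids of the mutants. In cluster 12 it was at 21.2 (13.6 to 31.5), 35.9 (26.6 to 47.3) and 31.0 CPM (22.7 to 41.4), in WT no lower than at the RS-like stage. In the SP-like cells it was at 1.13, 2.98 and 1.80 CPM. In the RS-like cluster it was at 15.3 CPM (12.9 to 18.0) for WT, 78.3 (71.9 to 85.1) for KO and 71.2 (65.3 to 77.5) for KI. Both mutant intervals lay above that of WT, and the folds over WT were 5.12 (4.25 to 6.19) in KO and 4.65 (3.86 to 5.63) in KI. In cluster 6 the level was 29.1, 273 and 286 CPM, 9.39-fold (8.20 to 10.8) and 9.84-fold (8.56 to 11.3) above WT. In cluster 4 it was 24.1, 166 and 187 CPM, but its cells had median depths of 7649, 2034 and 2315 UMIs. The WT share of UMIs was thus low and nearly level from cluster 6 onwards, with 21.6 CPM in cluster 5. The UMIs of Yipf6 per WT cell fell, from 0.458 in cluster 6 to 0.222 in cluster 4 and 0.0799 in cluster 5. The mutant shares stood several times higher in clusters 6 and 4. Cluster 5 held too few mutant cells for a level.

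Gm9 was low before the spermatids, and it ended low in WT. In cluster 12 it was at 4.41, 7.89 and 4.72 CPM, so it lacked the early presence of Yipf6. It was at 3.40, 5.39 and 4.96 CPM at the SP-like stage. RS-like cells held it at 23.3 CPM (20.3 to 26.6) for WT, 94.4 (87.4 to 102) for KO and 97.6 (90.6 to 105) for KI, 4.06-fold (3.48 to 4.75) and 4.19-fold (3.60 to 4.90) above WT. In cluster 6 the levels were 30.5, 196 and 215 CPM. In cluster 4 they were 11.6, 141 and 157 CPM. In cluster 5, where the mutants have too few cells for a level, WT was at 3.43 CPM.

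4933428M09Rik was different in timing, since it was already present in late SPs and was then lost from WT spermatids. In cluster 7, the latest of the SP-like clusters, it was at 49.9 CPM (44.2 to 56.1) for WT, 70.9 (63.3 to 79.3) for KO and 77.6 (69.9 to 85.9) for KI, whereas in clusters 10 and 11 it stayed under 2 CPM in each library. RS-like cells held 59.8 CPM (55.0 to 65.0) for WT, 143 (134 to 152) for KO and 141 (133 to 150) for KI, 2.39-fold (2.16 to 2.66) and 2.36-fold (2.13 to 2.62) above WT. In cluster 6 WT was at 12.9 CPM (10.6 to 15.5) and in cluster 4 at 1.77 CPM. KO cells of clusters 6 and 4 held 138 and 87.9 CPM, and KI cells 138 and 96.1 CPM. The fold over WT was therefore larger in the later cells, at 10.7 (8.78 to 13.3) in KO and 10.7 (8.73 to 13.3) in KI in cluster 6, since WT was much lower than in the RS-like cluster and the mutants were not.

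Foxp1, the autosomal gene, was on throughout meiosis, was lower in the last SPs than in cluster 10 of each library and declined further in WT spermatids. It was at 65.0 CPM (61.6 to 68.5) in WT SP-like cells, 66.8 (63.9 to 69.8) in KO and 70.9 (67.8 to 74.2) in KI. Among these, cluster 11 held 64.9, 53.9 and 61.8 CPM, cluster 10 held 85.6, 77.9 and 85.7 and cluster 7 held 44.6, 57.0 and 60.0. Cluster 7 was thus below cluster 10 in each library, but well below cluster 11 in WT only. The folds over WT in cluster 7 were already 1.28 (1.07 to 1.53) in KO and 1.35 (1.13 to 1.60) in KI. In the RS-like cluster it was at 23.7 CPM (20.7 to 27.0) for WT, 62.0 (56.4 to 68.1) for KO and 70.9 (65.0 to 77.2) for KI, 2.62-fold (2.22 to 3.09) and 2.99-fold (2.56 to 3.52) above WT. In cluster 6 WT was at 12.0 CPM, KO at 66.6 and KI at 72.7. In cluster 4 WT was at 4.92 CPM, while KO held 67.3 CPM and KI, on few cells, 35.4 (14.2 to 72.9). The shallow cluster 1 had its best score for RS markers but stayed unnamed. Its UMIs were low, and its leading genes held nothing from the RS list applied here. They did include Acrv1 and Spaca1, which the paper gives as genes high in RSs. In cluster 1 Foxp1 was at 41.2, 140 and 130 CPM, and 4933428M09Rik at 42.6, 117 and 111 CPM. The gap there was smaller for Yipf6, at 27.4, 49.7 and 65.6 CPM, and for Gm9, at 27.4, 48.4 and 35.5 CPM, whose fold of KI over WT was 1.29 (0.786 to 2.12). The mutant RS-like and cluster 6 cells thus held about the Foxp1 level of the mutant SPs, and the WT cells did not. It was also high in somatic cells, at 250, 305 and 320 CPM in the macrophage-like cluster and 262, 138 and 254 CPM in the stromal and myoid-like cluster, on few cells and with wide, overlapping intervals.

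**Figure D1:**
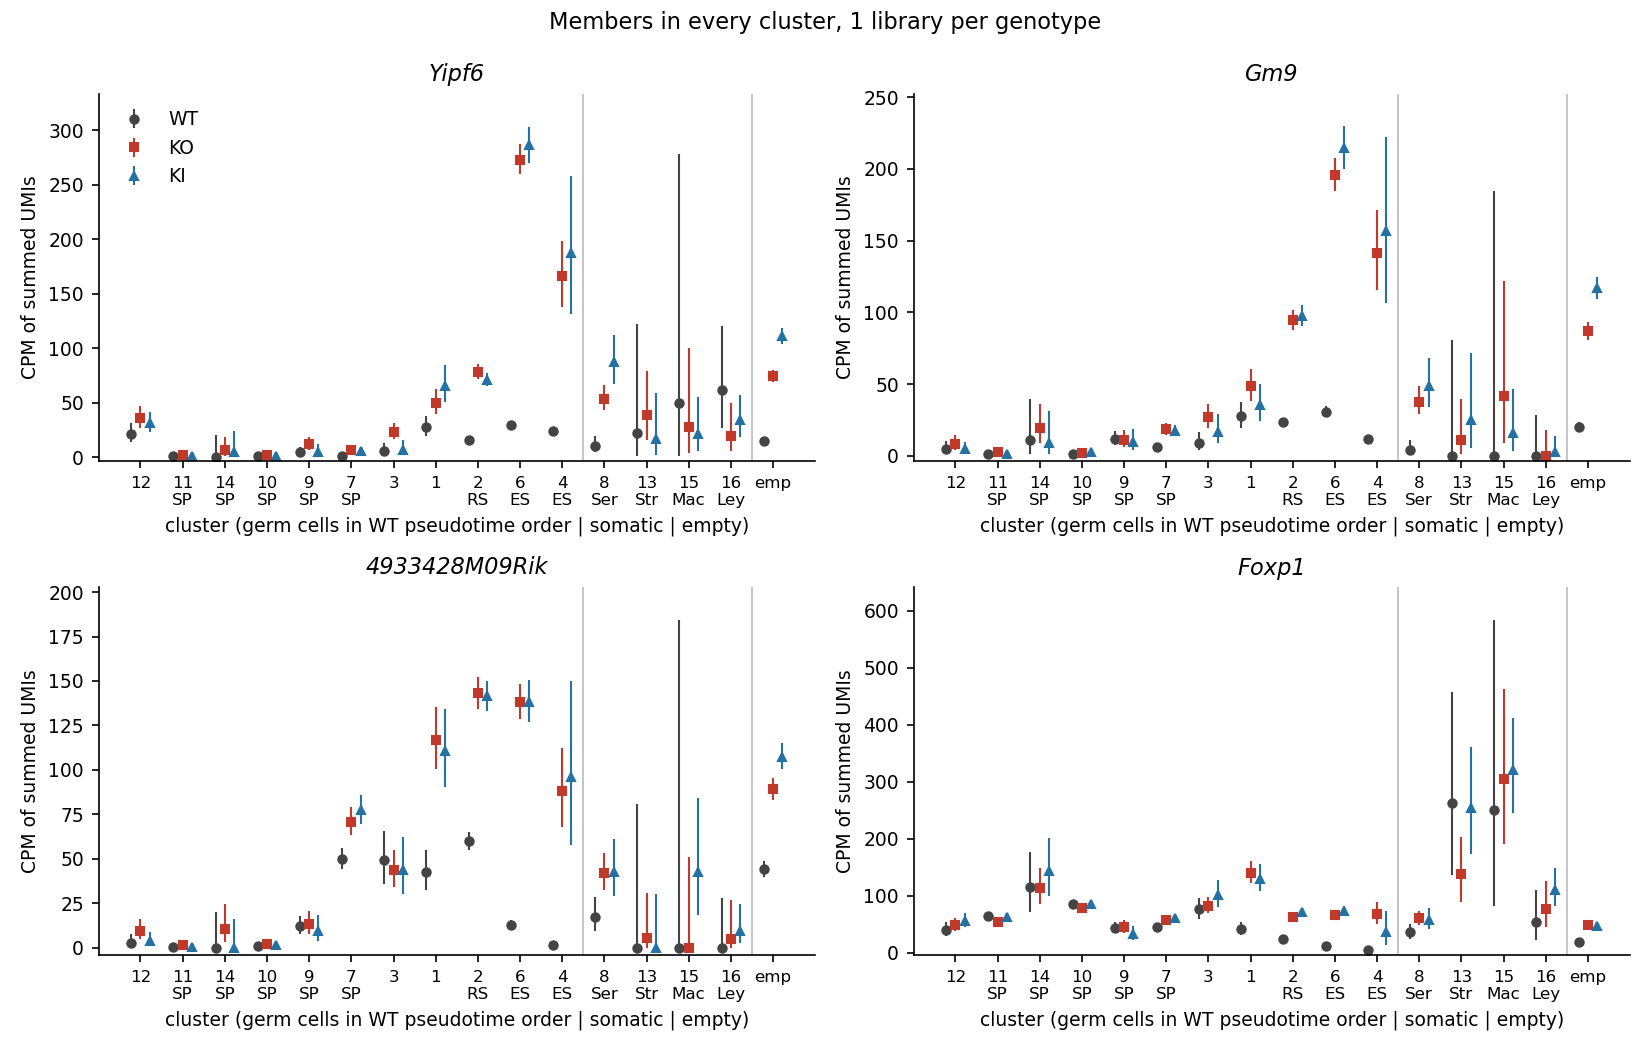
Level of each gene (y axis, CPM of summed UMIs, linear) in clusters ordered along the germ line and then the somatic-like clusters (x axis), for WT, KO and KI, with 1 point per library and bars for exact 95% Poisson intervals. Cluster 5 is left out, as it held 3 KO cells and 1 KI cell. In the germ cell clusters 2, 6 and 4 the mutants lie above WT for each gene, and so they do in the Sertoli-like cluster. In the other, smaller somatic-like clusters no such order holds throughout. In clusters 10 and 11 the X-linked genes are near 0 in each library.

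The plain ratio of RS-like to SP-like cells within a library does not depend on a factor that scales all cells of that library. With 1 CPM added, this holds only roughly at low levels. For Yipf6 the plain folds were 13.5, 26.3 and 39.5. On the log2 scale with 1 CPM added, the ratio was 2.93, 4.32 and 4.69 for Yipf6. For Gm9 it was 2.46, 3.90 and 4.05, and for 4933428M09Rik 1.94, 3.40 and 3.16. The X-linked genes were thus higher in RSs than in SPs in every library. For Foxp1 it was -1.42 in WT, lower in RSs, against -0.10 in KO and 0.00 in KI. The SP-like cells are a sum of clusters that the libraries held in different proportions. Against cluster 7 alone, a comparison chosen after seeing the data, the step was about as large in each library for Yipf6, at 3.41, 3.38 and 3.49. WT cells of cluster 7 held Yipf6 at 0.537 CPM on 3 UMIs, so the added 1 CPM sets much of the WT step. The fold over WT was larger in cluster 7, at 12.3 in KO and 10.1 in KI, than in the RS-like cluster, at 5.12 and 4.65. Without the added 1 CPM the step of Yipf6 was thus larger in WT, on those few UMIs. With it, the step was 1.78, 2.29 and 2.45 for Gm9, 0.26, 1.0025 and 0.86 for 4933428M09Rik and -0.88, 0.12 and 0.24 for Foxp1.

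The next step, from the RS-like cluster to cluster 6, separated the genes into a pair that took a growing share in every library and a pair that was lower in WT only. For 4933428M09Rik the log2 ratio of cluster 6 to the RS-like cluster was -2.13 in WT, against -0.05 in KO and -0.03 in KI. For Foxp1 it was -0.92 in WT against 0.10 and 0.04. For Yipf6 it was 0.88 in WT against 1.79 and 1.99, and for Gm9 0.38 against 1.05 and 1.13. The transcripts of 4933428M09Rik and Foxp1 thus stood at a steady share of the mutants' RNA where WT lost them, whereas Yipf6 and Gm9 took a growing share in the mutants. These are shares of the UMIs of the cells, so a change in the amount of RNA per cell cannot be told apart from a change of the gene.

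**Figure D2:**
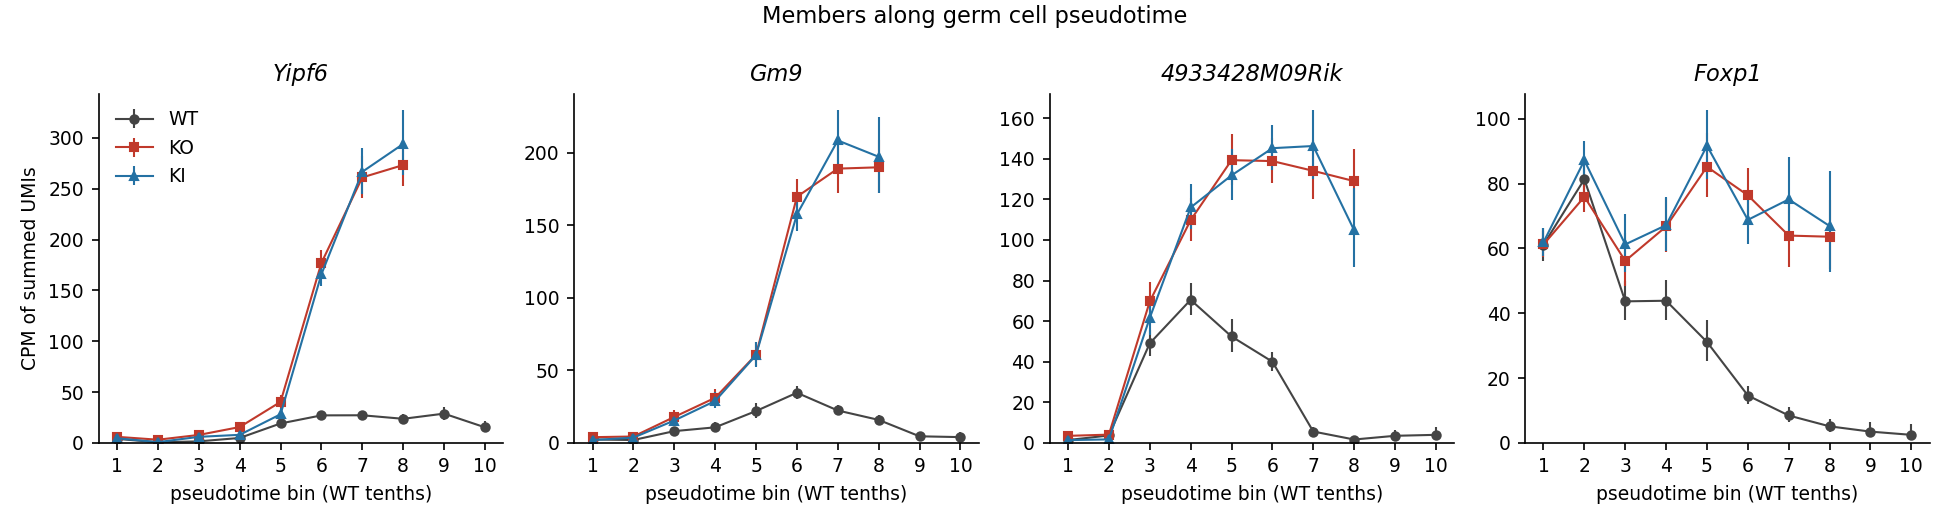
Level of each gene (y axis, CPM) in 10 bins of pseudotime of about equal numbers of WT cells (x axis, bin number), for WT, KO and KI, with exact 95% Poisson intervals. For Yipf6 the libraries part mainly after bin 5, with WT between 19.1 and 27.1 CPM and KO between 40.3 and 273 CPM in bins 5 to 8.

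Cells were also lined up by pseudotime instead of by cluster, in 10 bins of about equal numbers of WT cells. Yipf6 in bins 5, 6, 7 and 8 was at 19.1, 27.0, 27.1 and 23.6 CPM in WT, at 40.3, 177, 261 and 273 in KO and at 28.1, 166, 267 and 294 in KI. The gap thus opened mainly between bins 5 and 6. 4933428M09Rik in bins 3 to 8 went from 49.1 over 70.5, 52.4, 40.0 and 5.57 to 1.64 CPM in WT. In KO it went from 69.7 over 110, 139, 139 and 134 to 129 CPM, and in KI from 61.6 over 116, 132, 145 and 146 to 105 CPM. Foxp1 in bins 2 and 7 was at 81.4 and 8.44 CPM for WT, 75.9 and 64.0 for KO, and 87.2 and 75.1 for KI. Gm9 in bins 3, 6, 7 and 8 was at 8.07, 34.5, 22.3 and 15.8 CPM for WT. It was at 17.9, 170, 189 and 190 for KO, and at 15.4, 157, 208 and 197 for KI. In WT Gm9 thus fell after bin 6, while the mutants stayed high. The last bins cannot be compared, since bin 9 held 13 KO cells and 4 KI cells, and bin 10 held 1 of each.

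The RS-like cells were then weighted to the WT mix of stages, by 1 measure of stage at a time. Their median pseudotime was 0.739, 0.736 and 0.740. Pseudotime was computed from the integrated profiles, in which the libraries had been drawn together, so near-equal medians are partly built in. The median share of spermatocyte transcripts was 0.30% in WT and 0.35% in each mutant, and the summed share was 0.287%, 0.371% and 0.361%, so it was higher in the mutants. The share of protamine and transition protein transcripts was lower in the mutants, with medians of 0.40%, 0.20% and 0.10% and summed shares of 0.776%, 0.282% and 0.181%. Cells were sorted into 4 bins at the quartiles of WT pseudotime and the bins were averaged with the WT weights. The log2 ratios to WT were then 2.49 in KO and 2.17 in KI for Yipf6, 2.09 and 1.98 for Gm9, 1.24 and 1.20 for 4933428M09Rik, and 1.34 and 1.50 for Foxp1. As found, they had been 2.28 and 2.15, 1.98 and 2.02, 1.24 and 1.23, and 1.35 and 1.54. WT weights over bins of the spermatocyte transcript share gave 2.56 and 2.35 for Yipf6, 2.22 and 2.16 for Gm9, 1.24 and 1.22 for 4933428M09Rik and 1.37 and 1.53 for Foxp1. That share rests on few UMIs per cell, with bin edges at 0.2%, 0.3% and 0.4%, and 358 of 1134 cells lay near an edge. Counting noise therefore blurs these bins, so weighting by them matches stage only in part and is a weak check. Under pseudotime and this share no ratio was much below that found without standardising. Bins of the protamine and transition protein share moved those of Yipf6 to 2.96 in KO and 3.09 in KI and those of Gm9 to 2.50 and 2.51, and left 4933428M09Rik at 1.25 and 1.17 and Foxp1 at 1.38 and 1.50. The top bin of that share held 147 WT cells, 27 KO cells and 2 KI cells, so its KI values rest on very few cells.

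Within the RS-like cells the genes also differed in how they moved along pseudotime. Yipf6 in the 4 quartiles was at 4.64, 8.67, 17.3 and 27.5 CPM in WT, at 17.7, 21.7, 93.7 and 201 in KO and at 10.0, 20.1, 66.3 and 170 in KI. It thus went up in each library and was higher in the mutants in each quartile. In the earliest quartiles each library was below its empty barcodes, which hold free RNA, at 14.3, 74.4 and 111 CPM. The part of free RNA in those quartiles was not tested. 4933428M09Rik was at 67.7, 67.6, 58.7 and 48.2 CPM for WT, 140, 141, 155 and 137 for KO and 122, 146, 142 and 144 for KI. Its mutant level was therefore above WT from the earliest RS-like cells and stayed nearly level along pseudotime, while the WT level was lower in the last quartiles, so the gap was wider there.

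The protamine and transition protein transcripts gave a further measure of stage, but one that differed itself between the genotypes. In cluster 6 they took 19.3%, 7.55% and 7.56% of the UMIs. Of the cells deep enough to be thinned to 2000 UMIs, 266 of 266 in KO and 108 of 110 in KI fell in the lowest WT quartile of that share, under 14.0%. Within that quartile Yipf6 was at 32.3, 274 and 284 CPM, and Gm9 at 35.0, 197 and 213. 4933428M09Rik was at 27.6, 138 and 142 CPM and Foxp1 at 15.2, 66.2 and 73.1. The WT cells of lower protamine share thus held more 4933428M09Rik than cluster 6 of WT as a whole, and still less than the mutant cells. Without integration, most cells of cluster 6 were placed apart by genotype: 373 of the WT cells lay in a cluster with no KO or KI cell of cluster 6, while 198 KO cells and 61 KI cells shared another. The ES-like clusters found without integration also divided by genotype, with one of 1191 WT, 2 KO and 7 KI cells and one of 142 KO and 72 KI cells with no WT cell. Unnamed clusters with both RS and ES markers divided as well. The first held no WT, 405 KO and 146 KI cells, and the second 445, 18 and 6. Cluster 6 gave 198 KO and 61 KI cells of the first and 120 WT cells of the second, so the others came from other clusters. A cluster named SP-like, with 731, 691 and 314 cells, was mixed. Whether such WT cells and the mutant cells are of the same age cannot be told from these counts.

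**Figure D3:**
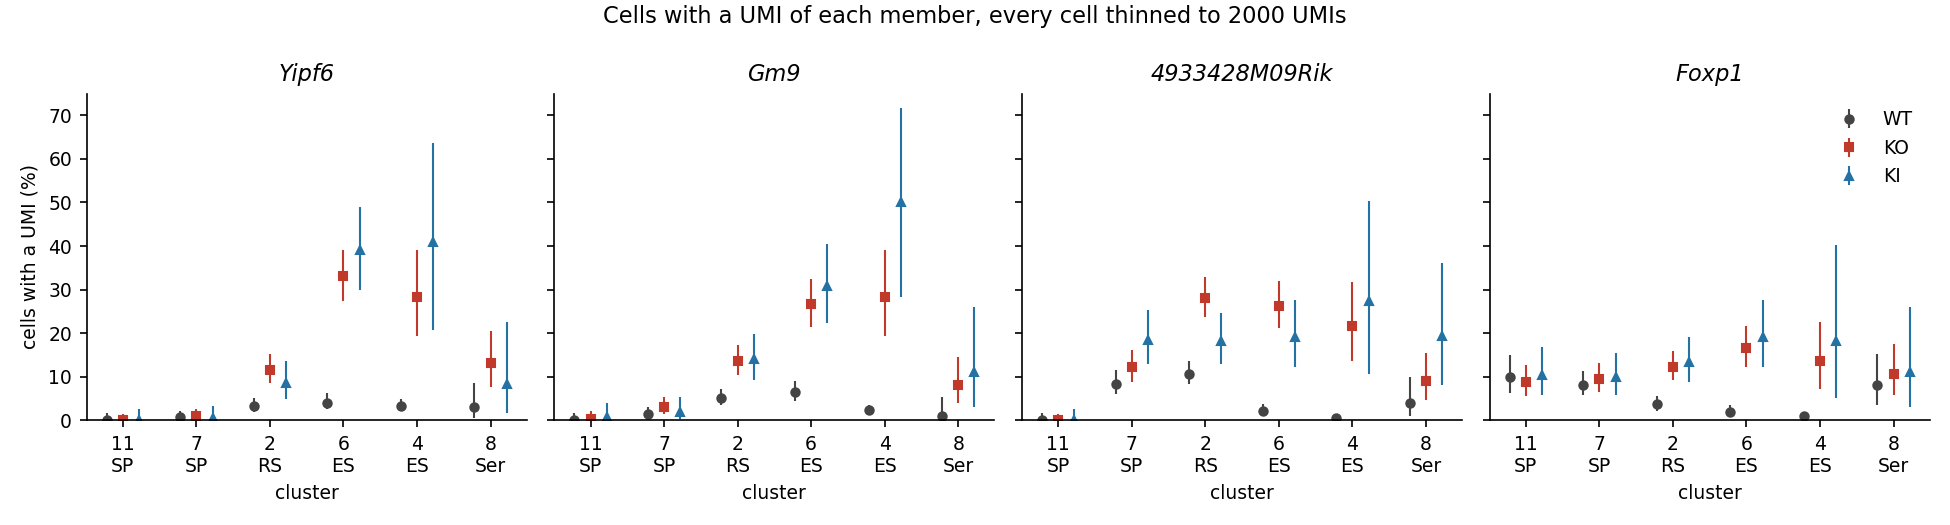
Share of cells with at least 1 UMI of each gene (y axis, percent) after every cell was thinned to 2000 UMIs, in the RS-like, ES-like and comparison clusters (x axis), for WT, KO and KI, with exact 95% Clopper-Pearson intervals. In cluster 6 the share for Yipf6 was 4.07%, 33.1% and 39.1%.

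A larger share of cells carried each transcript in the mutants. After thinning each cell to 2000 UMIs, Yipf6 was found in 4.07% of WT cells of cluster 6, 33.1% of KO cells and 39.1% of KI cells. Without thinning the shares were 29.3%, 74.2% and 72.0%, at median depths of 11892, 14260 and 13706.5 UMIs. Gm9 was found in 6.50%, 26.7% and 30.9% of thinned cells, 4933428M09Rik in 2.03%, 26.3% and 19.1%, and Foxp1 in 1.83%, 16.5% and 19.1%. In the RS-like cluster the thinned shares were lower for Yipf6, at 3.27%, 11.6% and 8.60%, and for Gm9, at 5.09%, 13.6% and 14.0%. For 4933428M09Rik they were 10.7%, 28.1% and 18.3%, higher than in cluster 6 for WT and KO. For Foxp1 they were 3.64%, 12.3% and 13.4%, higher than in cluster 6 for WT only.

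Free RNA in the droplets held these transcripts as well. In empty barcodes Yipf6 was at 14.3, 74.4 and 111 CPM, close to or above its level in the RS-like cells of the same library. Gm9 was at 20.1, 87.0 and 117 CPM there, 4933428M09Rik at 44.3, 89.1 and 107, and Foxp1 at 18.7, 48.4 and 47.3. Sertoli-like cells, which are shallow (medians of 1450, 1272 and 1068.5 UMIs), held Yipf6 at 9.77, 53.7 and 87.2 CPM, and the thinned share of the deeper ones with a UMI was 3 of 100 for WT, 13.1% for KO and 8.33% for KI. Those shares rest on 100, 122 and 36 cells. The other genes were also higher in the Sertoli-like cells of the mutants. Gm9 was at 3.67, 37.6 and 48.6 CPM there, 4933428M09Rik at 17.1, 42.0 and 42.9, and Foxp1 at 35.4, 60.5 and 57.2. The shares of Yipf6 in the RS-like cluster were about the same, so by this measure alone they cannot be told from background, while those of KO and KI in cluster 6 were well above. For Gm9 the Sertoli-like shares were 1 of 100 for WT, 8.20% for KO and 11.1% for KI, and for Foxp1, which somatic cells also express, 8 of 100 for WT, 10.7% for KO and 11.1% for KI. For 4933428M09Rik they were 4 of 100 for WT, 9.02% for KO and 19.4% for KI, so its KI shares in the RS-like cluster and in cluster 6 were no higher than that background, unlike those of KO. The deep pachytene-type cluster 11, by contrast, held Yipf6, Gm9 and 4933428M09Rik at no more than 2.63 CPM in each library. Without thinning, 1.90%, 5.30% and 5.22% of its cells held a UMI of Yipf6, at median depths of 27499, 31452.5 and 72344 UMIs. Where 10% of each sum was taken off at the profile of the empty barcodes, each of the 4 genes kept a log2 ratio to WT above 1 in RS-like cells of both mutants. The empty barcodes had folds over WT of much the same size, in KO 5.20 for Yipf6 and 2.59 for Foxp1, against 5.12 and 2.62 in RS-like cells. Taking off a part of that profile could therefore hardly lower the ratios, and the part of free RNA in them was not tested.

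Genes used as markers of other cell types had UMIs in the same sums. The summed level of each of the 4 marker lists given here was higher in both mutants than in WT, in the RS-like cluster and in cluster 6. Single genes made up much of some sums, and directions within the lists were mixed. Of the 10 macrophage markers in the RS-like cluster, 4 were higher and 2 lower in KO, and 4 higher and 3 lower in KI. Of the 12 stromal and myoid markers in cluster 6, 9 were higher and 2 lower in KO, and 5 higher and 4 lower in KI. The 12 Sertoli markers together were at 11.8, 30.5 and 20.5 CPM in the RS-like cluster, and at 44.2, 117 and 86.9 CPM in cluster 6. In cluster 6 Dhh, a hedgehog ligand, made up most of the sum in KO and KI but not in WT, at 17.0, 70.2 and 67.6 CPM. Each of the 12 was higher in KO than in WT there. In KI 5 were higher, 4 lower and 3 at 0 as in WT: besides Dhh, Aard was higher at 1.67, 6.99 and 4.37 CPM and Gata4 at 1.07, 1.75 and 2.06, while Defb19 was lower in KI at 14.9, 21.0 and 6.43 and Cst12 at 4.53, 5.77 and 2.83. In either cluster the defining genes Sox9 and Wt1 had at most 4 UMIs per library. The 10 macrophage markers were at 6.16, 10.4 and 10.8 CPM in the RS-like cluster, with Cd74, Lyz2 and Tyrobp at 0, and the 12 stromal and myoid markers at 19.98, 38.5 and 36.8 CPM, mostly from Igf1 (16.7, 34.5 and 34.3 CPM) and with Col1a2, Tcf21 and Ptch1 at 0. The 6 Leydig markers were at 1.70, 4.91 and 5.33 CPM. In cluster 6 the stromal and myoid markers were at 7.51, 40.9 and 28.3 CPM, the Leydig markers at 0.477, 4.02 and 4.63, and the macrophage markers at 19.8, 29.5 and 26.5, again lowest in WT. C1qb made up most of that macrophage sum, at 19.1, 28.0 and 22.9 CPM. The part of such RNA in the levels of the 4 genes was not tested. Yipf6, Gm9 and 4933428M09Rik were each several times higher in cluster 6 of the mutants than in the Sertoli-like cells of the same library. Against the empty barcodes of the same library the gap was smaller. In KO and KI, 4933428M09Rik was at 138 against 89.1 CPM and 138 against 107. Gm9 was at 196 against 87.0 and 215 against 117, and Yipf6 at 273 against 74.4 and 286 against 111.

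**Figure D4:**
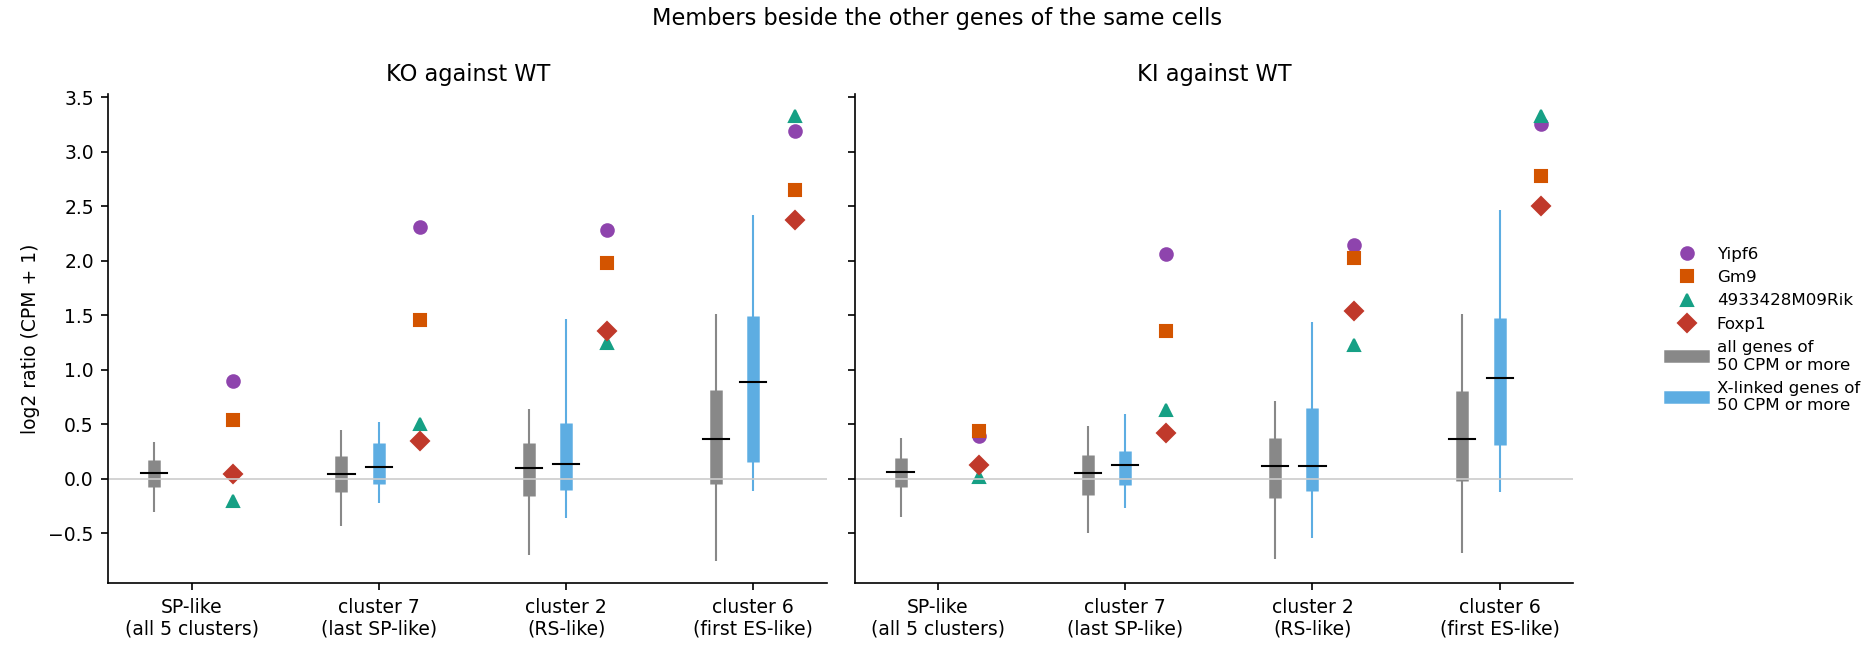
Log2 ratio to WT (y axis, 1 CPM added) of the 4 genes in KO (left) and KI (right) by cluster (x axis), with the distribution of all genes of at least 50 CPM and of the X-linked ones beside them. In cluster 6 the median gene lay at 0.36 in both mutants and the median X-linked gene at 0.89 in KO and 0.92 in KI, below each of the 4 genes.

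Against all genes, the 4 stood at the upper end in spermatids. Among RS-like cells 32 of 3606 genes (0.887%) were at least 1 log2 unit higher in both mutants and 62 were as much lower, with a median ratio of 0.10 in KO and 0.11 in KI. In cluster 6 the calls were far more common, at 441 of 2941 genes (15.0%) higher and 58 lower, with a median of 0.36 in each mutant, so a ratio past 1 is a weaker statement there. In both clusters all 4 genes were past that line, which the choice of genes fixes at least in part. In cluster 7 only 5 of 3586 genes (0.139%) were, and neither 4933428M09Rik nor Foxp1, the pair with at least 50 CPM there, was among them. Yipf6 and Gm9 were below that level in cluster 7, at 0.537, 6.62 and 5.42 CPM and at 6.08, 18.5 and 17.1 CPM. Their ratios to WT there rest on few UMIs and on levels well under those of the empty barcodes of the mutants. After thinning, Yipf6 was found in 3 of 415 WT, 3 of 338 KO and 1 of 162 KI cells of cluster 7, and Gm9 in 6 of 415, 10 of 338 and 3 of 162. Without thinning the shares were 0.723%, 8.19% and 13.6% for Yipf6 and 7.71%, 18.6% and 34.0% for Gm9. Median depths were 11108, 11631 and 27200 UMIs. The folds of Yipf6 over WT were 12.3 (3.82 to 63.2) in KO and 10.1 (3.09 to 52.1) in KI. In SP-like cells 2 of 3742 genes (0.0534%) were past that line, and Foxp1, with log2 ratios of 0.04 in KO and 0.12 in KI, was not.

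Scaling by trimmed mean of M-values (TMM), which sets the bulk of genes equal in place of the totals, lowered the log2 ratio of the median gene by 0.15 in RS-like cells of both mutants, and in cluster 6 by 0.58 in KO and 0.61 in KI. In RS-like cells, where more genes had been lower than higher before, 21 were then higher and 92 lower. The balance of calls turned in cluster 6, to 108 higher and 250 lower, and in the sum of both clusters, from 70 higher and 59 lower to 21 higher and 148 lower. The 4 genes kept their direction and stayed past 1 in both clusters, which the choice of genes fixes at least in part. In RS-like cells they were at 2.14 in KO and 2.00 in KI for Yipf6, 1.83 and 1.88 for Gm9, 1.09 and 1.08 for 4933428M09Rik and 1.20 and 1.40 for Foxp1. In cluster 6 they were at 2.61 and 2.66, 2.07 and 2.18, 2.76 and 2.74, and 1.81 and 1.92.

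Other X-linked genes gave the wider frame for Yipf6, Gm9 and 4933428M09Rik. Of 55 X-linked genes of at least 50 CPM in the RS-like cluster, 7 (12.7%) were at least 1 log2 unit higher in both mutants and none was as much lower, against 0.704% of the genes on neither sex chromosome. The 3 chosen genes are among the 7. The median X-linked gene was at 0.14 in KO and 0.12 in KI, near the median of all genes. In cluster 6, 33 of 79 (41.8%) were higher in both, against 14.2% of the genes on neither sex chromosome, with medians of 0.89 and 0.92. The X chromosome took 1.57%, 2.29% and 2.42% of UMIs in cluster 6, against 1.05%, 1.18% and 1.21% in the RS-like cluster and 0.0430%, 0.0438% and 0.0358% in cluster 11. Its share in the pachytene-type cells was thus low in each library. Beside the chosen genes, Rnf138rt1 was at 31.2, 110 and 115 CPM in the RS-like cluster, while Asb12 was at 13.1, 75.7 and 76.1 CPM in cluster 6. At the low end were Tmsb15a, a beta thymosin gene, and H2al3, a histone H2A variant gene of spermatids, in RS-like cells. On the Y chromosome Eif2s3y, which encodes a translation initiation factor subunit, was the one gene of at least 50 CPM, at 67.7, 73.7 and 87.6 CPM in the RS-like cluster and at 17.6, 69.4 and 83.0 CPM in cluster 6.

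The families of Yipf6 and Foxp1 were looked at in RS-like cells, where 0.887% of all genes were past the line and where the choice of genes puts Yipf6 and Foxp1 past it. Of 9 genes of the Yip1 domain family, 4 had at least 50 CPM, and Yipf6 was the 1 past the line in both mutants. Yipf1 was at 92.6, 118 and 113 CPM, Yif1b at 269, 289 and 294, and Yif1a at 72.5, 82.4 and 72.9. Of 44 forkhead genes 3 had at least 50 CPM, and Foxp1 was the 1 past the line in both. Foxp2 was at 31.2, 53.5 and 79.1 CPM, with log2 ratios of 0.76 in KO and 1.31 in KI, and Foxj1, a regulator of motile cilia, at 58.1, 78.3 and 72.0. Foxp4, far under 50 CPM at 0.638, 2.39 and 3.20, was past 1 in both mutants on 6, 17 and 24 UMIs. Of 27 Golgi genes 9 had at least 50 CPM and none was past the line, with medians of 0.48 in KO and 0.50 in KI. Tmf1, a golgin-like factor needed for acrosome formation, was at 0.68 and 0.84, and Gorasp2, a Golgi stacking protein, at 0.03 and 0.09. None of these lists is independent of earlier results of these data.

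KO and KI were close to each other in the RS-like cluster and cluster 6. In the RS-like cluster the fold of KI over KO was 0.909 (0.806 to 1.03) for Yipf6, 1.03 (0.929 to 1.15) for Gm9, 0.988 (0.906 to 1.08) for 4933428M09Rik and 1.14 (1.01 to 1.30) for Foxp1. In cluster 6 it was 1.05 (0.969 to 1.13), 1.09 (0.9997 to 1.20), 1.0005 (0.895 to 1.12) and 1.09 (0.933 to 1.28). Elsewhere they lay further apart in places: for Yipf6 the fold of KI over KO was 0.605 (0.417 to 0.869) in SP-like cells, 0.297 (0.0914 to 0.757) in cluster 3 and 1.62 (1.15 to 2.28) in the Sertoli-like cluster. In cluster 11 it was 0.418 (0.184 to 0.893) for Gm9 and 0.233 (0.0563 to 0.732) for 4933428M09Rik, both on low levels. For Foxp1 it was 1.85 (1.06 to 3.26) in the stromal and myoid-like cluster and 1.61 (1.29 to 2.00) over all somatic-like clusters. With 1 library each, no difference between KO and KI, within or beyond these bounds, could be separated from the spread between mice.

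The genes whose course over the 16 WT clusters was most like that of each gene were named from 10426 genes, by Pearson correlation of log2(CPM + 1), as a description over clusters of 1 library that differ in depth. For Yipf6 they were Mgmt (0.96), Dynlt3 (0.95) and Susd6 (0.93). For Gm9 they were Cypt2 (0.97), Fbxo24 (0.96) and Gm42654 (0.96). For 4933428M09Rik they were 4930447J18Rik, Rec8 and Gm45079 (0.98 each), of which Rec8 encodes the meiotic cohesin subunit, and for Foxp1 they were Cd63 (0.96), Cep120 (0.96) and Ist1 (0.94).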

How the data were processed

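The deposited files held UMI counts per gene and barcode for every barcode, made by the authors from 10x Genomics 3′ libraries with alignment to mm10. The processing notes name Cell Ranger 2.1.1 and the file headers version 4. The annotation used was not given in the sources used here. Positions came from GENCODE M21 for 30934 of 31053 genes, and all 4 genes matched the RefSeq promoter table.

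Cells were called from UMI totals and then by comparison with empty barcodes (ranks 45000 to 90000, at least 500 UMIs, 10000 simulated barcodes, false discovery rate 0.01), and kept if they had over 500 genes and less than 10% of mitochondrial UMIs. Scrublet marked 168 of 7012 WT, 4 of 4744 KO and 3 of 2011 KI cells, too few in the mutants to rely on, so doublets stayed in and removal of the highest scores was an alternative. Libraries were integrated with Seurat 5.3.0 and sctransform 0.4.2 (2000 genes, 100 components) and clustered with Leiden 0.10.2 at resolution 0.3. UMIs were summed per cluster and library. CPM carry exact Poisson intervals, folds exact conditional intervals, and log2 ratios have 1 CPM added. No count test was run, since each group is 1 library. "Higher in both" means a log2 ratio of at least 1 in KO and in KI among genes with a mean of at least 50 CPM. The ratio step was tested on simulated data.

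The 4 genes, the gene lists and the markers were chosen with earlier results of these data known. The genes named were the 4, their neighbours in the order, the 3 most alike over WT clusters, and the highest and lowest of each list. Alternatives were the scaling, the pseudocount, the mean over cells, cell calling, gene and mitochondrial limits, doublet scores, integration, resolution, free RNA and stage bins. Alternatives chosen after seeing the data were leaving out protamine and transition protein UMIs or shared barcodes, the use of cluster 6, and cluster 7 in place of all SP-like clusters.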

Additional observations from a re-analysis of the deposited data

How the results depend on the processing

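In RS-like cells each of the 4 genes stayed at least 1 log2 unit above WT in both mutants under all 19 alternatives for KO and 18 for KI, with lowest values of 2.02 and 1.91 for Yipf6, 1.76 and 1.86 for Gm9, 1.09 and 1.08 for 4933428M09Rik and 1.18 and 1.40 for Foxp1. These alternatives rework the counts by which the genes were chosen, so the choice fixes this at least in part. The median over the 4 genes was 1.66 in KO, and 1.94 and 1.95 when standardised over the protamine transcript share in 4 and in 8 bins. In KI it was 1.78. Further choices made after seeing the data gave 2.11 in KO and 2.12 in KI for the sum of clusters 2 and 6, and 2.92 and 3.02 for cluster 6 alone.

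In SP-like cells the median ratio to WT was 0.29 in KO and 0.26 in KI, and it was 0.64 and 0.68 without integration and -0.65 and -0.57 with 10% free RNA subtracted, so its direction there is not settled. The median ratio of RS-like over SP-like cells was 2.20 (WT), 3.65 (KO) and 3.60 (KI). It was 1.72, 3.16 and 3.12 with 5 CPM added, 1.32, 2.73 and 2.79 as a mean over cells, 2.80, 5.59 and 5.39 with free RNA subtracted, 3.43 in KO at resolution 0.6, and 1.02, 1.65 and 1.65 against cluster 7 alone, a choice made after seeing the data. This median was larger in the mutants than in WT under each of these settings. The ratio of Yipf6 against cluster 7 alone was 3.41, 3.38 and 3.49, so with 1 CPM added it was no larger in KO than in WT. The added 1 CPM outweighs the WT level of Yipf6 in cluster 7, and without it the ratio was larger in WT than in either mutant.

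Without integration no cluster was named RS-like, so that setting has no RS-like value, and 8 protamine bins gave none in KI because a bin held no cell. The comparison of RS-like cells thus rests on the integration, without which the unnamed clusters with both RS and ES markers divided by genotype. No paired analysis was possible because each group has 1 library. Low levels in SP-like cells rest on few UMIs, and Foxp1 shares sequence with an overlapping gene model.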
